A study of Mus musculus with 16 samples.

Results

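HMGB1 is a chromatin protein that also acts as an extracellular signal, and 10 genes that encode its receptors and signalling partners were followed in mouse cortical astrocytes and endothelial cells (ECs). They were *Ager*, *Tlr2*, *Tlr3*, *Tlr4*, *Tlr9*, *Tril*, *Cxcl12*, *Cxcr4*, *Ackr3* and *Sdc1*, chosen by symbol from the 56980 identifiers of the count table, and each matched exactly 1 identifier. Bulk RNA sequencing had been performed on cells of postnatal day 14 cortex, with 1 astrocyte and 1 EC library from each of 8 animals. The 4 mutants (animals 2, 13, 18 and 21) carried 2 floxed *Hmgb1* alleles and *Aldh1l1-CreERT2*, a bacterial artificial chromosome transgene that drives tamoxifen-inducible Cre in astroglia (*Hmgb1*ΔAstro). The 4 littermates (animals 5, 9, 19 and 22), called WT here, carried the same floxed alleles (*Hmgb1* flx/flx) without Cre, so no group had an unmodified *Hmgb1* gene. All pups had received tamoxifen around birth, both sexes were used, and the Cre line and the floxed line were on B6 backgrounds. Myelin and CD45-positive cells were depleted first, and magnetic beads then captured ECs by their surface CD31 and astrocytes by ACSA-2.

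RAGE, the product of *Ager*, is a multiligand receptor that binds extracellular HMGB1. TLR2 and TLR4 are surface Toll-like receptors through which HMGB1 can activate NF-κB, whereas TLR3 and TLR9 are endosomal receptors for RNA and DNA, and HMGB1 can carry nucleic acids to such sensors. TRIL is a leucine-rich repeat membrane protein, abundant in brain, that assists TLR4 and TLR3. HMGB1 also forms a complex with the chemokine CXCL12, which signals through CXCR4, while ACKR3 (CXCR7) binds and removes CXCL12 without coupling to G proteins. Syndecan-1, encoded by *Sdc1*, is a heparan sulphate proteoglycan that can hold heparin-binding proteins such as HMGB1 at the cell surface.

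The libraries held 16076010 to 23132312 counted reads. Levels are given as CPM (reads normalised to library size) scaled by TMM factors, and levels of different genes are compared only per kilobase of exon. *Hmgb1* had 34.8, 39.9, 42.0 and 50.4 CPM in mutant astrocytes, against 90.5, 91.9, 128.0 and 121.3 CPM in WT astrocytes. The mean in mutant astrocytes was 38.7% of that in WT astrocytes, with no overlap (two-sided exact permutation test, p = 0.0286, the smallest that 4 against 4 can give). In ECs *Hmgb1* averaged 182.0 ± 8.0 CPM in mutants and 188.1 ± 12.5 CPM in WT (SD, n = 4 each). Astrocyte markers summed to 1008 to 1581 CPM in EC libraries and to 36840 to 51370 CPM in astrocyte libraries, with all 10 markers detected in every library. EC markers summed to 14096 to 17443 CPM in EC libraries and to 15.8 to 26.5 CPM in astrocyte libraries. The libraries also fell into 2 sets of 4 animals, 2 of each genotype in each set. In animals 2, 13, 5 and 9 the Y-linked transcripts summed to at least 275.6 CPM in each library, and animals 18, 21, 19 and 22, called animals without them, had at most 0.156 CPM, so this property cannot be told apart from anything else that went with the lower animal numbers. Genotype differences of members that differed between these sets are also given within them.

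The 10 genes had opposite preferences for the cell types. *Cxcl12*, *Cxcr4*, *Ackr3*, *Tlr2*, *Tlr4* and *Sdc1* were higher in ECs, *Tril* and *Tlr3* were higher in astrocytes, and *Ager* was at a similar level in both. Of the 9 genes with enough reads to be tested, 6 were higher and 2 lower in ECs in mutant animals, and the same was true in WT animals, which share no library with the mutants. Among all genes, 38.8% were called higher and 39.1% lower in mutant ECs relative to mutant astrocytes, and 38.3% and 38.2% in WT ECs relative to WT astrocytes, so a call was common in this comparison. The median log2 fold change of ECs over astrocytes was 2.25 over the tested members and 0.01 over all genes in mutants, and 2.12 over the members and 0.02 over all genes in WT. All calls are at an adjusted p under 0.05 in the quasi-likelihood test of edgeR, and in bulk samples fewer cells of a type and less RNA per cell cannot be told apart.

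**Figure D1:**
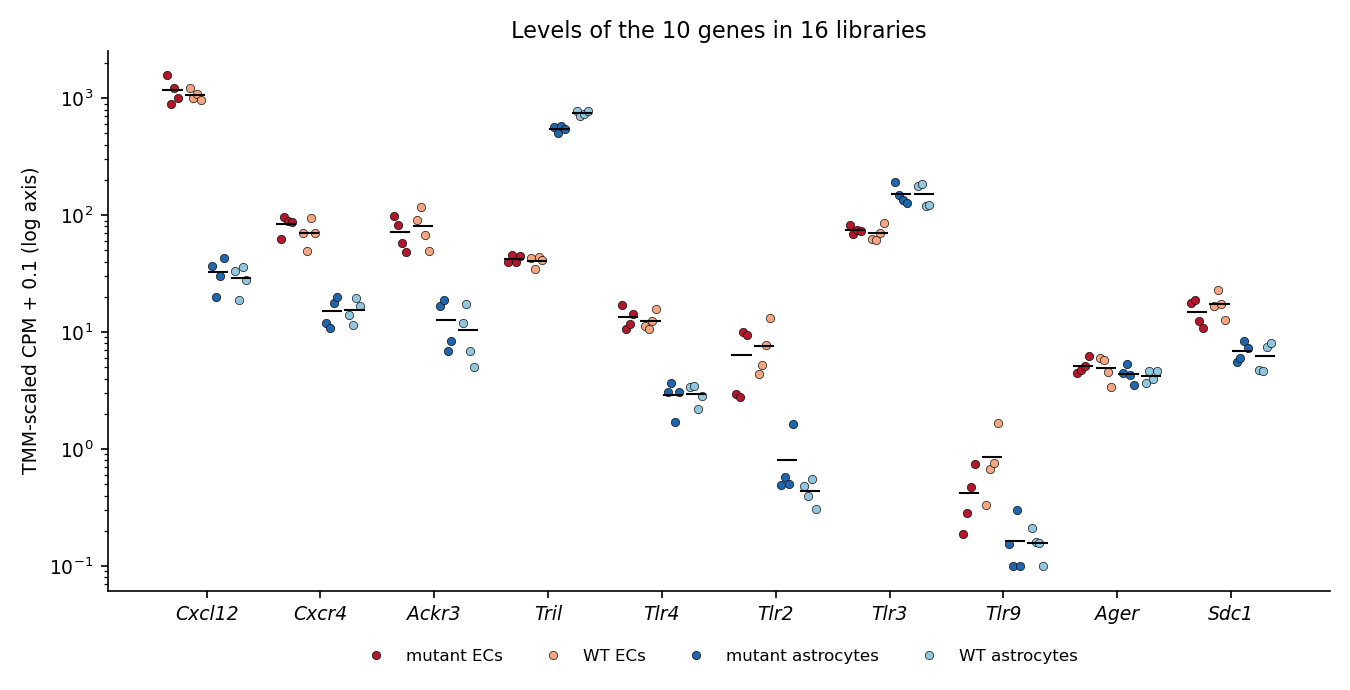
TMM-scaled CPM plus 0.1 on a log axis for the 10 genes, with 1 point per library, a bar at each group mean, and mutant ECs, WT ECs, mutant astrocytes and WT astrocytes from left to right within each gene. *Cxcl12* lies between 893 and 1570 CPM in ECs and between 18.8 and 42.9 CPM in astrocytes, *Tril* shows the reverse order, and the point groups of mutants and WT overlap for every gene except *Tril* in astrocytes.

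Per kilobase of exon, *Cxcl12* ranked first among the 10 genes in ECs, at 140.6 ± 35.6 CPM per kilobase in mutants and 128.1 ± 13.8 in WT (SD, n = 4 each). It stood at position 167 of 32238 genes with reads in mutant ECs and at position 193 of 30714 in WT ECs. *Cxcr4* came second, at 45.9 ± 7.99 CPM per kilobase in mutant ECs and 38.9 ± 9.96 in WT ECs, and *Tlr3* after it, at 14 ± 0.98 in mutant ECs and 13 ± 2.09 in WT ECs. The ranges of *Ackr3* and *Tril*, next in the order, overlapped in both genotypes of ECs, as did those of *Ager* and *Tlr4* and those of *Tlr4* and *Tlr2* further down, and *Tlr9* was last. The range of *Ackr3* overlapped that of *Tlr3* in WT ECs, and *Sdc1* overlapped *Ager* in mutant ECs and was apart from it in WT ECs. In astrocytes *Tril* was first, at 102.2 ± 6.28 CPM per kilobase in mutants and 139.7 ± 6.78 in WT, and its position among all genes with reads was 192 of 30965 in mutants and 134 of 31329 in WT. *Tlr3* followed at 28.1 ± 5.28 CPM per kilobase in mutant astrocytes and 28.2 ± 6.51 in WT astrocytes, ahead of *Cxcr4* and *Cxcl12*, and *Cxcl12* overlapped *Ager* in mutants. *Ager*, *Sdc1* and *Ackr3* had overlapping ranges in astrocytes, and *Tlr4*, *Tlr2* and *Tlr9* were the lowest, with ranges of *Tlr4* and *Tlr2* that overlapped in mutants and were apart in WT.

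The chemokine *Cxcl12* had 1570, 893, 1221 and 1010 CPM in mutant ECs and 1228, 1008, 1077 and 964 CPM in WT ECs. In astrocytes its level was 36.6, 19.8, 29.9 and 42.9 CPM in mutants and 33.4, 18.8, 35.7 and 27.8 CPM in WT. Every EC library was above every astrocyte library, and the log2 fold change of ECs over astrocytes was 5.17 (SE 0.29, adjusted p = 8.65e-08) in mutants and 5.21 (SE 0.22, adjusted p = 3.44e-08) in WT. The astrocyte mean was 2.73% of the EC mean, whereas the summed EC markers of astrocyte libraries reached 0.131% of those of EC libraries. Pericyte and smooth muscle markers were present in both preparations, at 2372 to 4792 CPM in EC libraries and 423 to 1498 CPM in astrocyte libraries. Fibroblast and meningeal markers were at 313 to 683 CPM in EC libraries and 364 to 628 CPM in astrocyte libraries. These sums were not alike gene by gene. *Foxc1* averaged 188.6 CPM in mutant ECs and 192.7 in WT ECs, against 11.3 in mutant astrocytes and 8.24 in WT astrocytes. Every other marker of that list had a higher mean in astrocytes than in ECs in both genotypes. Among astrocyte libraries, animals 9 and 13 had the highest pericyte and smooth muscle sums and the lowest *Cxcl12*. Animal 21 had the highest fibroblast and meningeal sum and the highest *Cxcl12*, while animal 22 had the lowest such sum but not the lowest *Cxcl12*. The part of either in the astrocyte level of *Cxcl12* was not tested.

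Both receptors of CXCL12 were also higher in ECs. *Cxcr4* was at 62.5, 95.8, 88.8 and 87.3 CPM in mutant ECs against 11.8, 10.7, 17.5 and 19.9 CPM in mutant astrocytes, and the log2 fold change between them was 2.47 (SE 0.22, adjusted p = 2.66e-06). In WT animals it was at 70.3, 49.5, 93.9 and 69.9 CPM in ECs against 13.9, 11.5, 19.5 and 16.5 CPM in astrocytes, and the log2 fold change was 2.21 (SE 0.22, adjusted p = 1.12e-05). *Ackr3*, the scavenging receptor, was at 98.4, 83.0, 57.9 and 48.0 CPM in mutant ECs against 16.6, 18.7, 6.81 and 8.31 CPM in mutant astrocytes. The log2 fold change of *Ackr3* was 2.51 (SE 0.35, adjusted p = 7.94e-05) in mutants and 2.99 (SE 0.41, adjusted p = 1.04e-04) in WT. For both receptors the EC and astrocyte libraries did not overlap in either genotype, although *Ackr3* ranged from 48.0 to 116.3 CPM within ECs.

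Among the Toll-like receptors, the surface receptors *Tlr2* and *Tlr4* and the endosomal receptor *Tlr3* lay on opposite sides. *Tlr4* averaged 13.3 ± 2.87 CPM in mutant ECs and 2.78 ± 0.83 CPM in mutant astrocytes (log2 fold change 2.25, SE 0.25, adjusted p = 1.53e-05), and 12.5 ± 2.27 CPM in WT ECs and 2.86 ± 0.57 CPM in WT astrocytes (2.12, SE 0.20, adjusted p = 8.47e-06). *Tlr3* was lower in ECs, with 81.5, 68.8, 75.3 and 73.7 CPM in mutant ECs against 190.6, 149.6, 133.7 and 128.1 CPM in mutant astrocytes. Its log2 fold change was -1.02 (SE 0.12, adjusted p = 3.14e-05) in mutants and -1.11 (SE 0.17, adjusted p = 2.58e-04) in WT. *Tlr2* was low in every library. It had 2.87, 2.69, 9.96 and 9.38 CPM in mutant ECs and 4.32, 5.14, 7.73 and 13.1 CPM in WT ECs, against 0.390, 0.476, 0.404 and 1.55 CPM in mutant astrocytes and 0.383, 0.298, 0.457 and 0.209 CPM in WT astrocytes. The EC libraries were all above the astrocyte libraries, by a log2 difference of 3.08 (SE 0.62, adjusted p = 1.05e-03) in mutants and 4.47 (SE 0.45, adjusted p = 1.17e-05) in WT. The microglia and macrophage markers, whose cells express *Tlr2*, were detected in the same EC libraries at a sum of 95.2 to 421.5 CPM and in the astrocyte libraries at 25.1 to 34.0 CPM, and their part in the *Tlr2* level was not tested. *Tlr9* was near the limit of detection, with 24 summed reads in mutant ECs (95% Poisson interval 15.4 to 35.7), 59 in WT ECs (44.9 to 76.1), 5 in mutant astrocytes (1.62 to 11.7) and 4 in WT astrocytes (1.09 to 10.2). It was therefore not tested between cell types.

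*Tril*, the co-receptor of TLR4 and TLR3, had the strongest preference for astrocytes among the 10 genes. It was at 39.8, 45.3, 39.5 and 44.8 CPM in mutant ECs against 566.0, 500.8, 577.2 and 547.6 CPM in mutant astrocytes, and at 43.0, 34.3, 44.1 and 41.2 CPM in WT ECs against 778.5, 707.2, 730.0 and 780.5 CPM in WT astrocytes. The log2 fold change of ECs over astrocytes was -3.70 (SE 0.09, adjusted p = 8.48e-10) in mutants and -4.20 (SE 0.11, adjusted p = 2.54e-09) in WT. The mean of *Tril* in ECs was 6.40% of that in astrocytes, while the summed astrocyte markers of EC libraries were 3.02% of those of astrocyte libraries. Single markers varied around that sum. In WT animals *Gja1* averaged 207.9 CPM in ECs and 2759 in astrocytes, and *Sox9* 33.1 and 232.9. These are larger EC shares than that of *Tril*, and the other markers of the list had smaller ones. The part of astrocyte RNA in the EC level of *Tril* was not tested. *Tlr4* and *Tril*, whose products act together, were thus highest in different cell types, *Tlr4* in ECs and *Tril* in astrocytes.

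*Ager* and *Sdc1* completed the list. *Ager* averaged 5.04 ± 0.80 CPM in mutant ECs and 4.29 ± 0.75 CPM in mutant astrocytes, and 4.81 ± 1.19 CPM in WT ECs and 4.13 ± 0.50 CPM in WT astrocytes. The log2 difference of *Ager* between ECs and astrocytes was 0.22 in both genotypes, with a 95% interval of -0.20 to 0.65 in mutants and -0.27 to 0.71 in WT, and the cell types overlapped. *Sdc1* was moderately higher in ECs, at 17.8, 18.6, 12.3 and 10.7 CPM in mutant ECs against 5.46, 5.95, 8.33 and 7.19 CPM in mutant astrocytes. Its log2 fold change was 1.13 (SE 0.21, adjusted p = 6.60e-04) in mutants and 1.48 (SE 0.25, adjusted p = 3.94e-04) in WT.

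**Figure D2:**
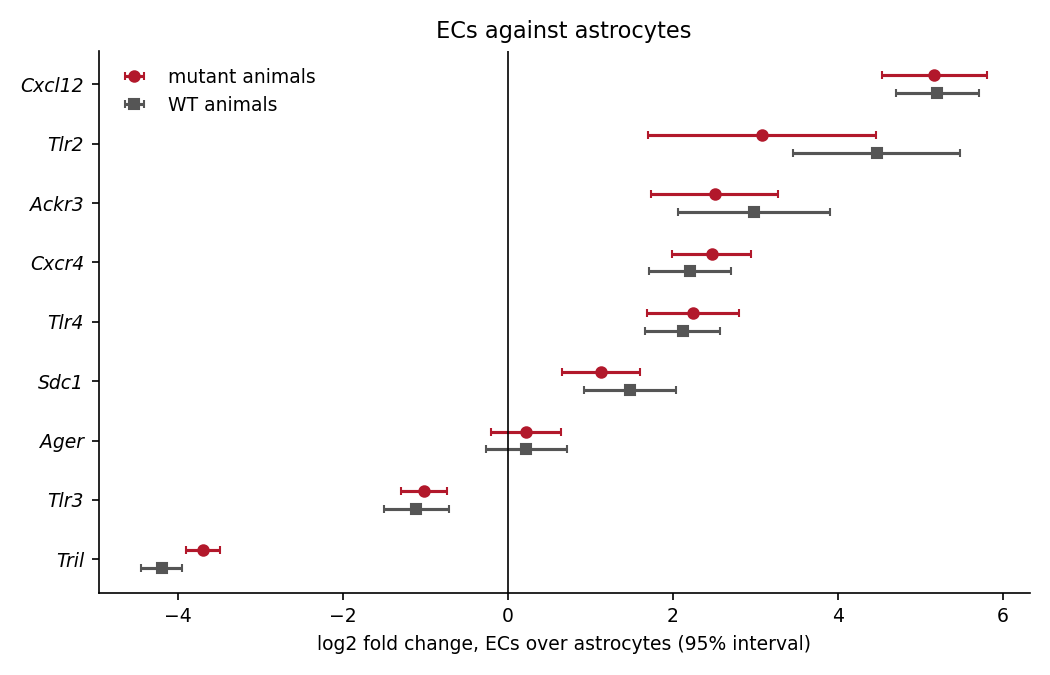
Log2 fold change of ECs over astrocytes for the 9 tested genes, with 95% intervals from edgeR, in mutant animals (circles, upper) and WT animals (squares, lower). The intervals of *Ager* cross 0, those of *Tril* and *Tlr3* lie below 0, and the remaining 6 genes lie above 0 in both genotypes, led by *Cxcl12* at 5.17 and 5.21.

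To set these preferences beside the regulatory sequence, the 250 bases before the annotated start of 9 of the 10 genes were read from RefSeq promoters of build GRCm38.p6 (*Tlr4* was not among them). Both strands were searched for the canonical NF-κB consensus, a TATA motif (TATAAA) and a GC box (GGGCGG), motifs chosen after the sequences had been seen. The promoters of 3 genes higher in ECs (*Cxcl12*, *Cxcr4* and *Ackr3*), of the 2 genes higher in astrocytes (*Tril* and *Tlr3*) and of *Tlr2* are shown, in the orientation of transcription, since these genes differed most between the cell types or carried the rarer motifs. Capitals mark motif matches.
Cxcl12, chr6:117168285-117168534, plus strand: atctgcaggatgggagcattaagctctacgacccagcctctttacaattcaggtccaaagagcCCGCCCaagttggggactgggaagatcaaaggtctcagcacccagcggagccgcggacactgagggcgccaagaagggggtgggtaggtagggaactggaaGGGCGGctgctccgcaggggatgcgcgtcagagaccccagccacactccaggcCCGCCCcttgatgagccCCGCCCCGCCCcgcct
Cxcr4, chr1:128592300-128592549, minus strand: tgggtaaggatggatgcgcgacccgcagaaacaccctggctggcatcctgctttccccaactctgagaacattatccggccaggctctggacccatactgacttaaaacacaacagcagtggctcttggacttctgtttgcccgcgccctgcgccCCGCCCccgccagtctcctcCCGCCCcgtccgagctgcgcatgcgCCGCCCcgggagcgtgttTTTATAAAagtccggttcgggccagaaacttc
Ackr3, chr1:90203730-90203979, plus strand: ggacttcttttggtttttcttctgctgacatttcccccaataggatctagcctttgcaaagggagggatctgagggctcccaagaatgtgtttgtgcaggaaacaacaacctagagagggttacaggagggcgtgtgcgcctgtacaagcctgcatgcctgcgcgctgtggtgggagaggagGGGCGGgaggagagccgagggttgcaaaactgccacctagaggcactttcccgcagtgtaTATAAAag
Tlr2, chr3:83841609-83841858, minus strand: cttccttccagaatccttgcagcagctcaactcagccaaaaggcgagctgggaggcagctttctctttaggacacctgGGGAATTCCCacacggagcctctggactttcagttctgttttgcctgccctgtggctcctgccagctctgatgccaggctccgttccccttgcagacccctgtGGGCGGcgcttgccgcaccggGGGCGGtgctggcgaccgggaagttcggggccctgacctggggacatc
Tlr3, chr8:45410381-45410630, minus strand: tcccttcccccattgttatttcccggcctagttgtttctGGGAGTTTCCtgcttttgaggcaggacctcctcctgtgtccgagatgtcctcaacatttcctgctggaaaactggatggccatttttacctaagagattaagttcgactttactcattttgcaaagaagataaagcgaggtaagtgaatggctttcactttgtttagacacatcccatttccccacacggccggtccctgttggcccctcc
Tril, chr6:53820826-53821075, minus strand: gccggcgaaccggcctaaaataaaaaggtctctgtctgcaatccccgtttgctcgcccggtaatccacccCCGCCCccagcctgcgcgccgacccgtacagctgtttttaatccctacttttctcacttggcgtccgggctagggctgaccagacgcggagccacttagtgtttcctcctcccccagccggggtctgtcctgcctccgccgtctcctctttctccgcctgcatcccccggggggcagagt

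The NF-κB consensus was found in 2 of the 9 promoters, those of *Tlr2*, where it reads alike on both strands, and *Tlr3*, and in 1643 of the 32851 promoters of the same length. The TATA motif was found in 2 of 9, those of *Cxcr4*, where matches on both strands overlap, and *Ackr3*, and in 12.4% of all promoters. GC boxes were found in 6 of 9 and in 32.7% of all promoters, and *Cxcl12* carried 5 of them, of which the last pair overlaps. A match is a string of letters and was not measured as a binding site.

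Deletion of astrocytic *Hmgb1* was then compared with WT within each cell type. *Tril* was lower in mutant than in WT astrocytes, and no other gene of the list was separated by genotype in either cell type. With edgeR, 0 of 8 members tested in astrocytes (*Tlr2* and *Tlr9* had too few reads) and 0 of 10 tested in ECs were called, beside 0.00631% of all genes in astrocytes (1 of 15850) and 0% in ECs (0 of 15750). The same test did not call the deleted gene *Hmgb1* in astrocytes either (log2 fold change -1.36, SE 0.15, adjusted p = 0.0605). The lack of a call is therefore weak evidence that a member was unchanged. At an unadjusted p under 0.05 the counts of members were 1 of 8 in astrocytes, which was *Tril*, and 0 of 10 in ECs, beside 7.44% of all genes in astrocytes and 5.24% in ECs. DESeq2 called 1 of 8 in astrocytes, also *Tril*, and 0 of 10 in ECs, beside 0.732% of all genes in astrocytes and 0.0381% in ECs. The median log2 fold change of mutants over WT was 0.03 over the members and 0.01 over all genes in astrocytes, and 0.06 over the members and 0.00 over all genes in ECs.

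*Tril* in astrocytes averaged 547.9 ± 33.7 CPM in mutants and 749.0 ± 36.4 CPM in WT (SD, n = 4 each), so the highest mutant library, at 577.2 CPM, was below the lowest WT library, at 707.2 CPM. Groups that did not overlap and were lower in mutants were found for 2.61% of all genes. The log2 fold change was -0.44 (SE 0.07, 95% interval -0.61 to -0.28), with an unadjusted p = 1.60e-04 and an adjusted p = 0.177 in edgeR. A two-sided exact permutation test of *Tril* alone gave p = 0.0286. Any gene whose groups of 4 do not overlap gets this p, so it adds nothing to the lack of overlap. The call depended on the fit, since the adjusted p of *Tril* was 4.93e-07 with DESeq2 and 0.0234 in edgeR with the set of animals as a covariate. The size of the difference did not, as it was -0.47 within animals with Y-linked transcripts, -0.42 within animals without them, and -0.48 to -0.41 when 1 animal at a time was left out, with an adjusted p of 0.346 to 0.560. In ECs *Tril* averaged 42.4 ± 3.13 CPM in mutants and 40.7 ± 4.4 CPM in WT, a log2 difference of 0.06 (95% interval -0.16 to 0.27). The genotype effect in ECs minus that in astrocytes was 0.51 (SE 0.12, unadjusted p = 7.84e-04, adjusted p = 0.816 in edgeR and 0.0328 in DESeq2). Of the 10 members 0 were called in this test with edgeR and 1 with DESeq2, again *Tril*, and 1 had an unadjusted p under 0.05. Of all genes, edgeR called 0.0114% and DESeq2 0.0743%, and 2.81% had an unadjusted p under 0.05.

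**Figure D3:**
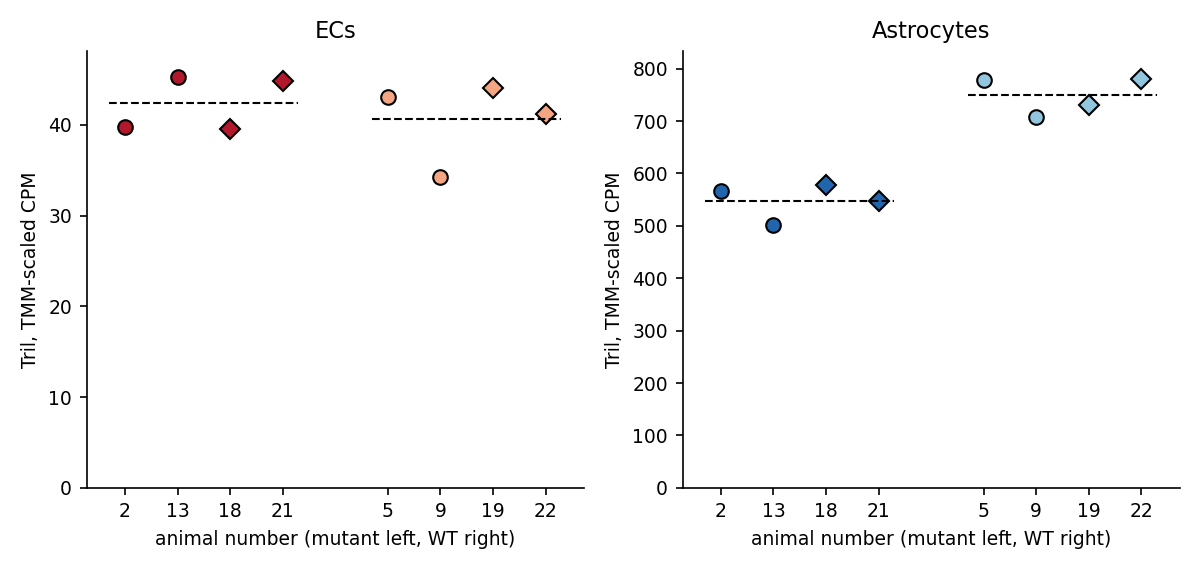
*Tril* in TMM-scaled CPM in ECs (left) and astrocytes (right), with 1 point per animal, mutants to the left of WT, circles for animals with Y-linked transcripts, diamonds for animals without, and dashed lines at group means; both axes start at 0. Mutant astrocytes lie between 500.8 and 577.2 CPM, below the WT astrocytes at 707.2 to 780.5 CPM, while the EC groups overlap.

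The *Tril* gene lies on the minus strand of chromosome 6 (GRCm39, 53792453 to 53797815), and 2 identifiers that share the symbol *Gm16499*, both long non-coding RNAs on the opposite strand, overlap its exons by 338 and 857 bases. Since the strand setting of the counting is not given in the sources used here, reads of *Tril* and *Gm16499* cannot be told apart with certainty. *Gm16499* was far lower than *Tril* and also lower in mutant astrocytes, at 3.68 ± 0.80 CPM in mutants and 7.11 ± 1.38 CPM in WT for one identifier, without overlap, and at 3.73 ± 0.59 CPM in mutants and 4.63 ± 0.56 CPM in WT for the other, where the groups overlapped. *Tlr3* and *Sdc1* also have antisense partners, *Gm45542* and *Gm4755*, with no reads and at most 2 reads in any library. *Gm69151*, which shares 235 exon bases with *Tlr4* on the opposite strand, matched no identifier of the count table and was not analysed here. Summed astrocyte markers overlapped between the genotypes of astrocytes. Of the single astrocyte markers only *Gfap* did not overlap, at 1359 to 2019 CPM in mutant astrocytes and 865 to 1283 CPM in WT astrocytes. Oligodendrocyte precursor markers also overlapped as a sum, at 2260 to 2605 CPM in mutant astrocytes and 2393 to 2842 CPM in WT astrocytes. Most of that sum was *Cspg5*, at 2054 CPM in mutant and 2221 CPM in WT astrocytes, whereas *Sox10* averaged 9.45 CPM in mutants and 8.12 CPM in WT. Their part in the *Tril* difference was not tested.

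The other members gave log2 differences between mutant and WT astrocytes from -0.03 (*Tlr4* and *Cxcr4*) to 0.31 (*Ackr3*). Their precision varied. The 95% interval was -0.39 to 0.40 for *Tlr3*, -0.34 to 0.47 for *Ager*, -0.40 to 0.73 for *Cxcl12*, -0.55 to 0.50 for *Cxcr4*, -0.63 to 0.56 for *Tlr4*, -0.39 to 0.66 for *Sdc1* and -0.66 to 1.29 for *Ackr3*. In ECs, the cells that keep *Hmgb1* in the mutants, the differences ran from -0.28 (*Tlr2*) to 0.24 (*Cxcr4*) apart from *Tlr9*. The 95% interval in ECs was -0.25 to 0.51 for *Cxcl12*, -0.21 to 0.68 for *Cxcr4* and -0.83 to 0.48 for *Ackr3*. It was -0.15 to 0.35 for *Tlr3*, -0.32 to 0.50 for *Tlr4*, -1.47 to 0.90 for *Tlr2*, -0.42 to 0.55 for *Ager* and -0.72 to 0.28 for *Sdc1*. *Tlr9* was at 0.090, 0.183, 0.373 and 0.645 CPM in mutant ECs and at 0.232, 0.582, 0.659 and 1.56 CPM in WT ECs, which overlap. Its log2 fold change was -1.27 (95% interval -2.81 to 0.27, adjusted p = 0.943), so a change of the size seen was not resolved against the spread between animals. The Poisson intervals of its summed reads, which cover counting error only, did not overlap (15.4 to 35.7 in mutant ECs, 44.9 to 76.1 in WT ECs).

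For members that differed between the sets of animals, the genotype differences were also taken within each set, and none was called by edgeR. *Tlr2* in ECs had 2.87 and 2.69 CPM in mutants against 4.32 and 5.14 CPM in WT among animals with Y-linked transcripts (log2 difference -0.78, unadjusted p = 0.0224, adjusted p = 0.766), without overlap. Among animals without them it had 9.96 and 9.38 CPM in mutants against 7.73 and 13.1 CPM in WT (-0.10, adjusted p = 0.998), and the groups overlapped. The difference between these *Tlr2* effects was -0.68 (95% interval -1.54 to 0.19, adjusted p = 0.977). *Ackr3* gave -0.20 in ECs of animals with Y-linked transcripts and -0.12 in those without, and 0.29 and 0.37 in their astrocytes. With the set as a covariate the *Ackr3* difference in astrocytes was 0.33 (unadjusted p = 0.0583, adjusted p = 0.304), against an unadjusted p = 0.490 without it. In astrocytes *Tlr3* gave -0.079 with and 0.12 without Y-linked transcripts, *Cxcr4* -0.16 and 0.060, and *Sdc1* 0.32 and 0.013.

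**Figure D4:**
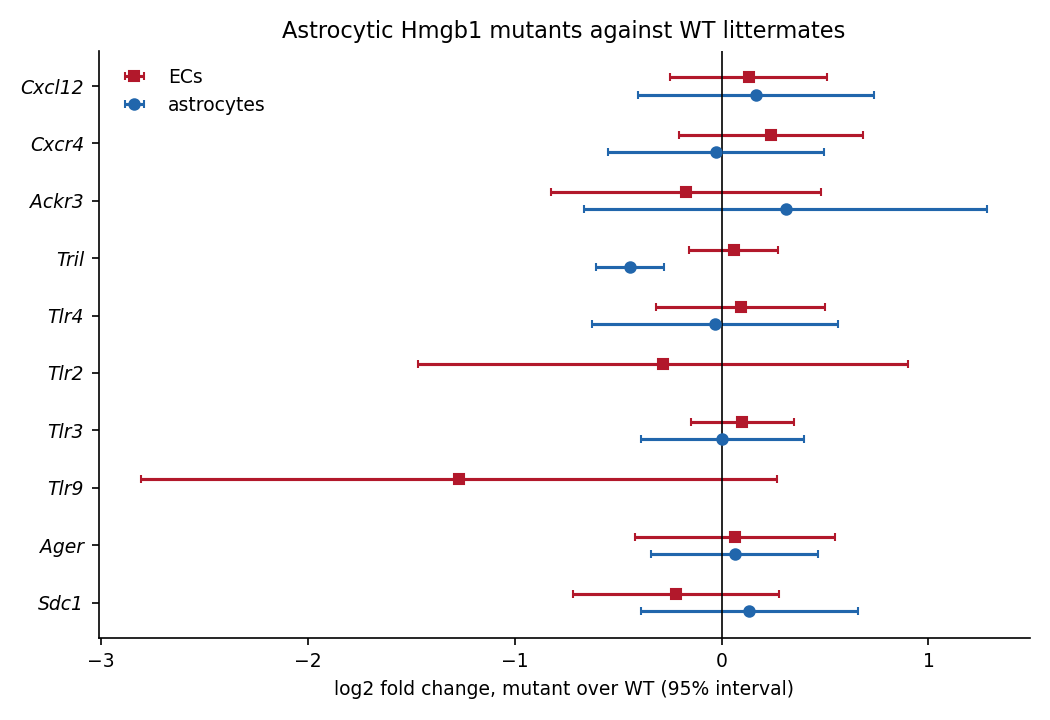
Log2 fold change of mutants over WT with 95% intervals from edgeR, for ECs (squares, upper) and astrocytes (circles, lower); *Tlr2* and *Tlr9* had too few reads in astrocytes. The interval of *Tril* in astrocytes, -0.61 to -0.28, is the one that does not include 0, and *Tlr9* in ECs has the widest interval.

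The spread within the groups followed the sets of animals for several members, a comparison added after the data were seen and made with genotype as a covariate. *Ackr3* was higher in animals with Y-linked transcripts in both cell types. In ECs it had 83.0 to 116.3 CPM in animals with Y-linked transcripts and 48.0 to 67.0 CPM in animals without, and in astrocytes 11.8 to 18.7 CPM in animals with them and 4.97 to 8.31 CPM in animals without. The sets did not overlap in either cell type, and the log2 difference of *Ackr3* was 0.79 (SE 0.12, adjusted p = 0.0120) in ECs and 1.25 (SE 0.15, adjusted p = 5.30e-04) in astrocytes. Of all genes, 3.82% were called between the sets in ECs and 32.7% in astrocytes, so the share of members called in astrocytes, 4 of 8, has to be read against a high background. Pericyte and smooth muscle markers overlapped between the sets in ECs, with 2956 to 4792 CPM in animals with Y-linked transcripts and 2372 to 4505 CPM in those without. In astrocytes they were apart, with 861 to 1498 CPM in animals with Y-linked transcripts and 423 to 662 CPM in those without, and their part in the *Ackr3* difference was not tested.

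*Tlr2* was the second member called in ECs, of 10 tested. It had 2.69 to 5.14 CPM in ECs of animals with Y-linked transcripts and 7.73 to 13.1 CPM in ECs of animals without, a log2 difference of -1.48 (SE 0.21, adjusted p = 0.00873). The microglia and macrophage markers moved with it, at 95.2, 99.0, 101.0 and 280.9 CPM in ECs of animals with Y-linked transcripts (animals 13, 2, 5 and 9) and 245.4 to 421.5 CPM in ECs of animals without, and all 12 markers were detected in each of these libraries. Animals 2, 13 and 5 thus had the lowest levels of both these markers and *Tlr2*, and animal 22 the highest of both. *Tlr9* in ECs had 0.090 to 0.582 CPM in animals with Y-linked transcripts and 0.373 to 1.56 CPM in animals without, which overlap. Its log2 difference was -1.61 (SE 0.46), not called in edgeR (adjusted p = 0.0991) but called there without a filter on low counts (adjusted p = 0.00342). The part of such cells in the *Tlr2* and *Tlr9* differences was not tested.

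In astrocytes *Tlr3* was higher in animals with Y-linked transcripts, at 149.6 to 190.6 CPM against 120.7 to 133.7 CPM in animals without (log2 difference 0.47, SE 0.08, adjusted p = 1.60e-03), and *Cxcr4* was lower, at 10.7 to 13.9 CPM against 16.5 to 19.9 CPM (-0.63, SE 0.11, adjusted p = 1.88e-03). *Sdc1* was also lower in astrocytes of animals with Y-linked transcripts, at 4.59 to 5.95 CPM against 7.19 to 8.33 CPM in those without (-0.59, SE 0.13, adjusted p = 6.35e-03). Astrocyte markers summed to 44105 to 51370 CPM in astrocytes of animals with Y-linked transcripts and to 36840 to 39161 CPM in those without. Neuronal markers summed to at most 22.9 CPM in animals with Y-linked transcripts and to 58.9 to 91.5 CPM in those without. The part of either in these differences was not tested. In ECs *Sdc1* ran the other way, at 16.5 to 22.7 CPM against 10.7 to 17.3 CPM (0.51, SE 0.14, adjusted p = 0.0967), a difference that was called with DESeq2 (adjusted p = 0.0232) and in edgeR without a filter on low counts (adjusted p = 0.00115). The set difference in ECs minus that in astrocytes was 1.11 for *Sdc1* (SE 0.19, adjusted p = 3.23e-03) and -0.64 for *Tlr3* (SE 0.13, adjusted p = 8.32e-03). These were 2 of 10 members in a test that called 14.9% of all genes and had no term for the animal. *Tril* did not follow the sets, with a log2 difference of -0.08 (95% interval -0.29 to 0.13) in ECs and -0.06 (-0.20 to 0.08) in astrocytes.

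**Figure D5:**
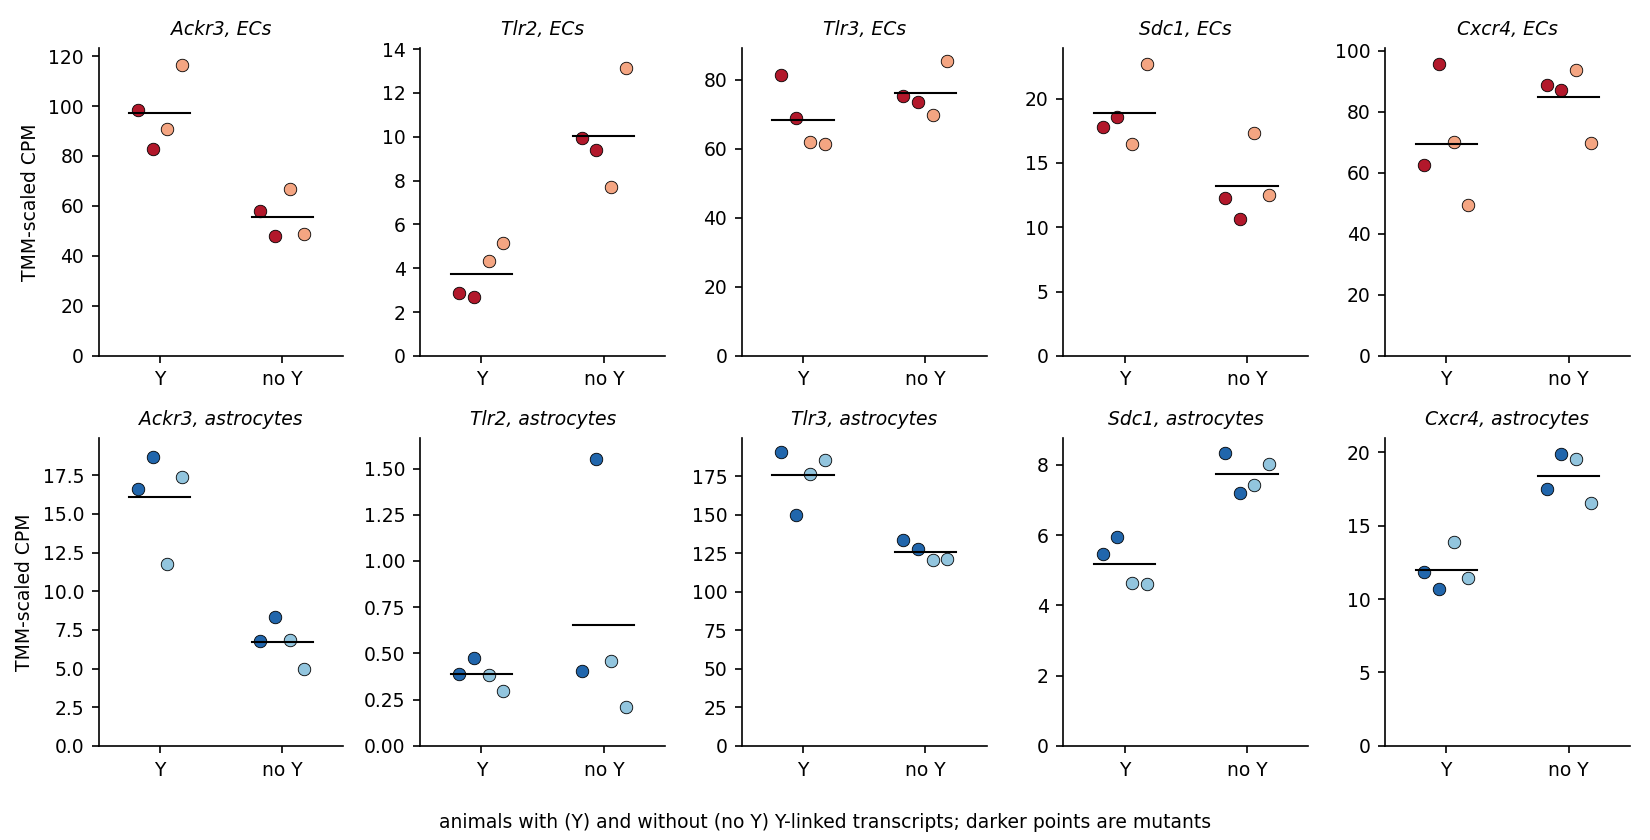
TMM-scaled CPM of *Ackr3*, *Tlr2*, *Tlr3*, *Sdc1* and *Cxcr4* in ECs (upper row) and astrocytes (lower row), in the 4 animals with Y-linked transcripts (left in each panel) and the 4 without (right), with mutants as the darker points and bars at the means; all axes start at 0. The ranges of the sets are apart for *Ackr3* in both cell types, for *Tlr2* in ECs, and for *Tlr3*, *Sdc1* and *Cxcr4* in astrocytes.

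The pathways in which these genes act were read from 9 lists of partners. By genotype edgeR called 0 of their 89 tested genes in astrocytes, where 7 had an unadjusted p under 0.05 (7.44% of all genes did) and DESeq2 called 1, *Hmgb1*. In ECs it called 0 of 104, where 3 had an unadjusted p under 0.05 (5.24% of all genes did) and DESeq2 called 0. These shares were near or below those of all genes. In the difference between the cell types the 1 call of edgeR was *Hmgb1* itself (1.32, SE 0.17, adjusted p = 0.0100). Between cell types the counts stand beside 38.8% of all genes higher and 39.1% lower in mutant ECs, and 38.3% and 38.2% in WT ECs, and the genes named are those with the smallest p in WT. The NF-κB and IRF list joined transcription factors downstream of the Toll-like receptors with kinases and inhibitors of the NF-κB pathway, such as *Ikbkb*, *Nfkbia* and *Tnfaip3*. Of its 15 genes, 13 were higher and 0 lower in ECs in either genotype. The median log2 fold change over the list was 1.91 in mutants and 1.98 in WT. *Rela* averaged 120.7 ± 3.81 CPM in mutant ECs, 136.3 ± 16.8 in WT ECs, 38.3 ± 3.79 in mutant astrocytes and 42.8 ± 3.16 in WT astrocytes. *Irf5* and *Nfkb2* were at 17.4 ± 2.37 and 55.9 ± 8.44 CPM in WT ECs against 0.355 ± 0.26 and 13 ± 2.13 CPM in WT astrocytes.

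Of the adaptors and kinases of Toll-like receptors, 13 were higher and 5 lower in ECs among 19 tested in either genotype. *Sigirr*, a negative regulator of Toll-like and interleukin-1 receptor signalling, had 88.4 ± 7.98 CPM in mutant ECs and 89.7 ± 8.57 CPM in WT ECs, against 2 summed reads in mutant astrocytes and 4 in WT astrocytes. *Sarm1*, an adaptor known for its role in axon degeneration, was higher in astrocytes, at 1.10 ± 0.21 CPM in WT ECs against 16.3 ± 1.67 CPM in WT astrocytes, and the kinase *Ripk1* was higher in ECs, at 76.9 ± 1.57 CPM in WT ECs against 27.1 ± 3.27 CPM in WT astrocytes. Of the co-receptors and chaperones, 5 were higher and 2 lower of 8 tested in mutant ECs, and 6 higher and 1 lower of 9 tested in WT ECs. They included *Ly96*, the MD-2 partner of TLR4, at 4.99 ± 0.44 CPM in mutant ECs and 4.63 ± 0.30 in WT ECs against 1.16 ± 0.21 in mutant astrocytes and 1.45 ± 0.40 in WT astrocytes, *Unc93b1*, the chaperone of endosomal Toll-like receptors (46.3 ± 11.9 CPM in WT ECs, 5.65 ± 0.92 in WT astrocytes), and *Cd36* (5.89 ± 2.78 CPM in WT ECs, 0.559 ± 0.37 in WT astrocytes). Thus *Tlr3* and *Unc93b1* were highest in the libraries of different cell types. Of the other Toll-like receptors, 3 were higher and 2 lower of 6 tested in mutant ECs, and 2 higher and 2 lower of 5 in WT ECs. *Tlr1* was higher in astrocytes, at 3.19 ± 0.59 CPM in WT ECs against 24.4 ± 3.16 CPM in WT astrocytes, and *Tlr6* is a close paralog, so the value is uncertain where reads fit both genes. *Tlr12* and *Tlr7* were at 16.4 and 3.10 CPM in WT ECs against 1.86 and 0.235 CPM in WT astrocytes.

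Among ligands and effectors of RAGE, 4 were higher and 3 lower in ECs of 7 tested in either genotype. *S100b*, a RAGE ligand and astrocyte marker, was at 15.1 ± 4.24 CPM in mutant ECs and 14.2 ± 3.33 in WT ECs against 231.6 ± 23.6 in mutant astrocytes and 207.5 ± 23.2 in WT astrocytes. *App* and *Adam10*, which encodes a protease that sheds RAGE, were higher in ECs, at 1646 ± 98.2 and 606.5 ± 50.2 CPM in WT ECs against 205.8 ± 34.1 and 131.6 ± 9.05 CPM in WT astrocytes. In the CXCL12 axis 7 of 16 genes were higher and 5 lower in mutant ECs, and 8 higher and 5 lower in WT ECs. *Dpp4*, whose peptidase cleaves CXCL12, was at 106.6 ± 14.6 CPM in mutant ECs and 96.9 ± 16.7 in WT ECs against 2.80 ± 0.61 in mutant astrocytes and 1.95 ± 0.46 in WT astrocytes, and *Adm*, encoding adrenomedullin, another ligand of ACKR3, at 123.2 ± 42.4 CPM in mutant ECs and 99.3 ± 28.3 in WT ECs against 2.01 ± 1.20 in mutant astrocytes and 1.0 ± 0.51 in WT astrocytes. The chemokine *Cxcl14* had the opposite pattern, at 12.1 ± 2.27 CPM in mutant ECs and 11.7 ± 3.57 in WT ECs against 480.3 ± 80.4 in mutant astrocytes and 454.4 ± 28.6 in WT astrocytes.

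Of the heparan sulphate genes, 6 were higher and 9 lower of 17 tested in mutant ECs, and 5 higher and 9 lower of 17 in WT ECs. *Sdc4*, another syndecan, was at 14.8 ± 3.19 CPM in mutant ECs and 18.2 ± 2.88 in WT ECs against 333.3 ± 95.4 in mutant astrocytes and 310.8 ± 46.8 in WT astrocytes, opposite to *Sdc1*. The glypicans *Gpc5* and *Gpc4* were at 7.58 and 10.2 CPM in WT ECs against 337.0 and 51.2 CPM in WT astrocytes. Of the other binding partners, 4 were higher and 2 lower of 6 tested in either genotype. *Thbd*, encoding thrombomodulin, which binds and removes HMGB1, was at 115.6 ± 15.6 CPM in mutant ECs and 134.0 ± 22.9 in WT ECs against 8.87 ± 2.96 in mutant astrocytes and 7.41 ± 4.20 in WT astrocytes. *Il1r1* was also higher in ECs (102.9 CPM in WT ECs, 8.01 in WT astrocytes), and *Ptprz1* was higher in astrocytes (165.0 CPM in WT ECs, 7878 in WT astrocytes). Within the HMGB family 2 of 3 genes were higher in ECs in either genotype, *Hmgb1* and *Hmgb2*. *Hmgb2* was at 118.4 ± 15.6 CPM in mutant ECs and 133.5 ± 18.6 in WT ECs against 56.8 ± 18.7 in mutant astrocytes and 51.6 ± 17.7 in WT astrocytes, and *Hmgb3*, not called, at 33.7 CPM in WT ECs and 30.8 CPM in WT astrocytes.

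The genes whose levels ran most like each member over the 16 libraries were found by Pearson r of log2(CPM + 1) among 14797 genes, as a description in which the 2 cell types set most of the agreement. For *Cxcl12* they were *Vsig10*, *Tanc1* and *Znrf2* (r = 0.998, 0.997 and 0.996), for *Cxcr4* *Dcbld1*, *Grsf1* and *Gpr85* (0.987, 0.987 and 0.985) and for *Ackr3* *Bcar1*, *Adamts10* and *Tinagl1* (0.991, 0.988 and 0.986). For *Tril* they were *Rgma*, *Iglon5* and *Smarcd3* (each r = 0.998), for *Tlr4* *Diaph2*, *Lrrc8b* and *Atl3* (0.993, 0.992 and 0.991) and for *Tlr3* *2610021A01Rik*, *Slc29a3* and *Pi4ka* (0.982, 0.981 and 0.981). *Tlr2* ran with *Naip6*, *Ncf1* and *Serpina3g* (0.979, 0.979 and 0.977) and *Sdc1* with *Bysl*, *Cct7* and *Rtl8c* (0.978, 0.976 and 0.975). *Ager*, which did not separate the cell types, had no gene as close, the nearest being *4930581F22Rik*, *Hdgfl2* and *9330104G04Rik* (0.714, 0.699 and 0.694).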

How the data were processed

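RNA from 16 libraries (8 animals, astrocytes and ECs of each) had been sequenced. Per the study's methods, the authors trimmed reads with the FASTX-toolkit and aligned and counted them with STAR 2.7.9a on GRCm39, and deposited raw read counts per gene. The annotation release and strand setting are not given in the sources used here. Of 56980 identifiers 56236 matched GENCODE symbols on GRCm39 and 744 did not.

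Genes were tested with the quasi-likelihood test of edgeR 4.0.16 (R 4.3.3), with TMM factors, filterByExpr and Benjamini-Hochberg adjustment over all genes tested, at 0.05. SEs come from the coefficient and its F statistic, and the fits were tested on simulated data. Alternatives were DESeq2 1.42.0, RLE factors, no filter, at least 1 CPM in 4 libraries, limma-voom (3.58.1) with quality weights, all 16 libraries in 1 fit, the set of animals as covariate, fits within sets, the animal as a block, each animal left out, CPM on total counts, and Spearman rho. An animal was placed in the set with Y-linked transcripts where their sum reached 1 CPM.

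The members and lists were chosen with earlier results of these data known. Named genes were the members, *Hmgb1*, list genes called by genotype, the 3 of each list with the smallest p between cell types in WT, and the 3 genes most like each member with a mean of at least 1 CPM. The libraries of an animal were paired by design, and their deviations from group means correlated at 0.172 to 0.461. Of 24 pairs of libraries within groups 0 were identical. Poisson intervals cover counting error only. P-values measure the spread between single animals.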

Additional observations from a re-analysis of the deposited data

Results flagged for a closer look

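In mutant astrocytes *Tlr2* was at 1.55 CPM (36 reads) in animal 21, apart from 0.390, 0.404 and 0.476 CPM in the other mutants, and this was the single member and group in which 1 animal stood apart from the other 3 by a test that chance passes in about 1 of 20 groups. Microglia and macrophage markers summed to 32.3 CPM in that library, against 25.7 to 30.6 CPM in the other mutant astrocyte libraries.

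The genotype effect on *Hmgb1* in ECs minus that in astrocytes was 1.32 on the log2 scale (adjusted p = 0.0100), as the design intends. The difference between animals with and without Y-linked transcripts was itself different in ECs and astrocytes for *Sdc1* (1.11, adjusted p = 3.23e-03), *Tlr3* (-0.64, adjusted p = 8.32e-03) and *Hmgb1* (0.34, adjusted p = 0.0367).

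*Ager* in ECs was lower in mutants within animals with Y-linked transcripts, at 4.34 and 4.61 CPM against 5.85 and 5.63 CPM in WT, and higher in mutants within animals without them, at 5.06 and 6.16 CPM against 4.49 and 3.27 CPM in WT. The difference between these effects was -0.92 on the log2 scale (unadjusted p = 0.0223, adjusted p = 0.977), so it did not pass the test across genes.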

How the results depend on the processing

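None of the members' values that changed sign under an alternative had been called. In astrocytes the mutant minus WT log2 difference became -0.0049 for *Tlr3* with all 16 libraries in 1 fit and -0.079 within animals with Y-linked transcripts, and within animals without them -0.15 for *Ager* and 0.060 for *Cxcr4*. In ECs it became -0.37 for *Ager* within animals with Y-linked transcripts, and within animals without them -0.050 for *Tlr3*, -0.11 for *Tlr4* and -0.0053 for *Tril*. The genotype effect on *Ager* in ECs minus astrocytes was -0.023 without a filter, and the set difference of *Tril* in ECs minus astrocytes 0.0096 with limma-voom. *Tril* in astrocytes was called with DESeq2 (-0.45) and with the set as covariate (-0.44), so the members called in astrocytes numbered 1 and 1 there. Calls of all genes in astrocytes, 1 in edgeR, numbered 116 with DESeq2, 161 with the set as covariate, 6 with all libraries, 2 with limma-voom, 3 without a filter, 11 within animals with Y-linked transcripts and 3 within those without. DESeq2 called 6 genes by genotype in ECs, 13 genes and 1 member for the difference between cell types, 1147 genes between the sets in ECs, and 4 and 5 genes for the genotype effect between the sets in astrocytes and in ECs. Without a filter 2071 genes and 5 members were called between the sets in ECs. The number of genes tested without a filter is not given here, so the 5 members cannot be set beside a share of all genes. Leaving out 1 animal at a time gave 319 to 587 genes called between the sets in ECs in place of 601. It turned the mutant minus WT difference in astrocytes for *Ager* (-0.051 to 0.16), *Tlr3* (-0.13 to 0.11), *Tlr4* (-0.18 to 0.14), *Cxcl12* (-0.0035 to 0.34) and *Cxcr4* (-0.19 to 0.11). In ECs it did so for *Ager* (-0.081 to 0.18), *Tlr2* (-0.62 to 0.12), *Tlr4* (-0.042 to 0.22), *Tril* (-0.018 to 0.10), *Cxcl12* (-0.036 to 0.24) and *Ackr3* (-0.36 to 0.054). For the difference between cell types it did so for *Ager* (-0.20 to 0.18), *Tlr3* (-0.065 to 0.31), *Tlr4* (-0.022 to 0.38), *Tlr9* (-2.38 to 0.099) and *Cxcl12* (-0.14 to 0.21), and for the set difference in ECs for *Ager* (-0.083 to 0.25), *Tril* (-0.14 to 0.0040) and *Cxcl12* (-0.059 to 0.26). The causes were not tested. The animal as a block was fitted for ECs against astrocytes and for the genotype effect in ECs minus that in astrocytes. It changed no call of a member there, and 3 genes rather than 2 were called for the latter. The set difference in ECs minus that in astrocytes was not fitted with the animal as a block. In astrocytes *Tlr2* and *Tlr9* are limited by depth, and *Tlr9* in ECs rests on few reads and a wide spread between animals.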
